A study of Homo sapiens with 8 samples.

Results

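The genes described here encode the constant regions of the immunoglobulin chains and the factors that help to assemble them. They are 10 of the 58219 genes listed in the deposited files, chosen by name: the heavy chain genes *IGHA1*, *IGHG1*, *IGHM* and *IGHD*, the light chain genes *IGKC*, *IGLC1*, *IGLC2* and *IGLC3*, and the assembly factors *JCHAIN* and *MZB1*. The libraries came from 2 established multiple myeloma (MM) lines, H929 and KMS11, that both carry t(4;14), a translocation that joins the heavy chain locus on chromosome 14 to chromosome 4. Cells were grown in medium with FBS and exposed for 24 h to 2 µM fluvastatin or to ethanol, the solvent control. Fluvastatin is a statin, which inhibits the rate-limiting enzyme of the mevalonate pathway. Each of the 4 groups (H929 in ethanol, H929 in fluvastatin, KMS11 in ethanol and KMS11 in fluvastatin) had 2 biological replicates. Each line stands for the cells of 1 tumour grown in culture.

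A plasma cell makes antibody from a heavy chain and a light chain, each built from a variable and a constant region that are joined in one transcript after the gene segments have been rearranged. A light chain is either kappa, with the constant region of *IGKC*, or lambda, with that of one of the *IGLC* genes, and a rearranged cell usually keeps a single kind. The J chain, encoded by *JCHAIN*, links IgA or IgM units into polymers, and MZB1 is a protein of the endoplasmic reticulum (ER) that aids the assembly and secretion of antibody. Many MM lines secrete light chains, with or without a heavy chain.

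The values are estimated read counts and TPM, a relative abundance scaled to the same sum in every library, which corrects for gene length and was used to compare levels between genes. For tests between groups, rounded counts were scaled for library size, as CPM, with edgeR's TMM method. Totals ranged from 26702515 to 41910446 counts per library. Of the 10 genes, 5 passed the filter on low counts and were tested among 13144 genes: *IGKC*, *IGLC1*, *IGLC2*, *JCHAIN* and *MZB1*. Differences are log2 fold changes ± SE, and a gene was called when its p by edgeR's quasi-likelihood test, adjusted after Benjamini and Hochberg, was under 0.05. Beside a value, edgeR adjusted p stands for this p. The t(4;14) gene *NSD2* was at 83.6 to 141 TPM, and 6 of 7 plasma cell markers were at 16.6 TPM or more in every library. The remaining marker, *CD38*, reached at most 11 counts in KMS11. The earlier B cell markers *MS4A1*, *CD22* and *PAX5* stayed at or under 0.02 TPM, and *CD22*, *CD14* and *DCN* were listed at 0 throughout. The T cell marker *CD3E* reached 246 counts in H929, where *CD3D* had at most 2. With fluvastatin the plasma cell markers moved in both directions in H929. The mean of *SDC1* went from 109.96 to 52.6 TPM, of *SLAMF7* from 91.4 to 44.9, of *XBP1* from 938 to 739.6 and of *IRF4* from 193 to 189.85, whereas that of *TNFRSF17* went from 414 to 474, of *CD38* from 22.6 to 25.9 and of *PRDM1* from 55.6 to 67.9. In KMS11 *SDC1* went from 41.9 to 43.0 TPM, *CD38* stayed at or under 0.03 on average, and the other 5 had lower means. Whether these changes had a part in the results below was not tested. In bulk RNA, fewer expressing cells and less RNA per cell cannot be told apart.

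Since the members resemble one another and other genes, the sequences that separate them are shown first. The opening 120 bases of the coding part of the 3 lambda constant genes on chromosome 22, plus strand, are given from GRCh38 with the 11 positions at which they differ in capitals. They lie at chr22:22895375-22895494, chr22:22900976-22901095 and chr22:22906342-22906461, each in the single exon of its gene.
IGLC1: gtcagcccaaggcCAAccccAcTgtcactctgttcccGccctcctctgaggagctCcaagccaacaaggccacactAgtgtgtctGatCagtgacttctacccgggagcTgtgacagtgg
IGLC2: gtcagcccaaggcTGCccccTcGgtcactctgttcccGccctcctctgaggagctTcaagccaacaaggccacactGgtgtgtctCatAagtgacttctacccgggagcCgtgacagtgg
IGLC3: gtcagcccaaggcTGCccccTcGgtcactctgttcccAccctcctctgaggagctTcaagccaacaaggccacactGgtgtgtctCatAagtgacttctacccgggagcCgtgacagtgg

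Over the 317 coding bases, *IGLC1* differed from *IGLC2* at 15 and from *IGLC3* at 16, whereas *IGLC2* and *IGLC3* differed at 3. The split of reads between *IGLC2* and *IGLC3* is therefore uncertain. A different overlap concerns *IGLC1*: the gene (chr22:22895375-22895834) lies wholly inside an exon of *IGLL5* (chr22:22895375-22896111), a gene on the same strand that encodes an immunoglobulin lambda-like protein. Reads within *IGLC1* fit both genes, and the authors' counting divided them between these genes.

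Few counts were assigned to heavy chain constant genes in either line. Low transcript levels in the cells and heavy chain reads lost in the authors' alignment or gene counting cannot be told apart from these files, and this holds for each heavy chain value below. *IGHM* (chr14:105851705-105856218, minus strand) and *IGHD* (chr14:105836765-105845677, minus strand), which encode the constant regions of IgM and IgD, had 0 counts in all 8 libraries. A count of 0 allows a level of up to 0.13 CPM in the shallowest library, taking 3 counts as the floor, which covers counting error only. *IGHG1* (chr14:105736343-105743071, minus strand), for the IgG1 heavy chain, had 1 and 2 counts in H929 in ethanol, 0 and 0 in fluvastatin, 2 and 6 in KMS11 in ethanol and 2 and 1 in fluvastatin.

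*IGHA1* (chr14:105703995-105708665, minus strand), for the IgA1 heavy chain, had 9 and 1 counts in H929 in ethanol and 25 and 8 in fluvastatin. In KMS11 it had 0 and 1 counts in ethanol and 0 and 0 in fluvastatin. Scaled for library size, the H929 libraries stood at 0.303 and 0.0395 CPM in ethanol and at 1.08 and 0.318 CPM in fluvastatin, so that the groups overlapped by count and not by CPM. The gene did not pass the filter and was not tested alone. In the alternative with paralogous constant genes summed, members called in H929 went from 3 to 4, through *IGHA1* summed with *IGHA2*. That sum passed the filter only through the H929 fluvastatin libraries, in which it was highest, so its call is a description only. H929 was established, as background knowledge, as a line of the IgA kappa type. Of the counts assigned to the 14 heavy and light constant genes, nearly all were on the light chain genes: the heavy constant genes together held 4 to 37 counts in a library in ethanol and 10 to 199 in fluvastatin.

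**Figure D1:**
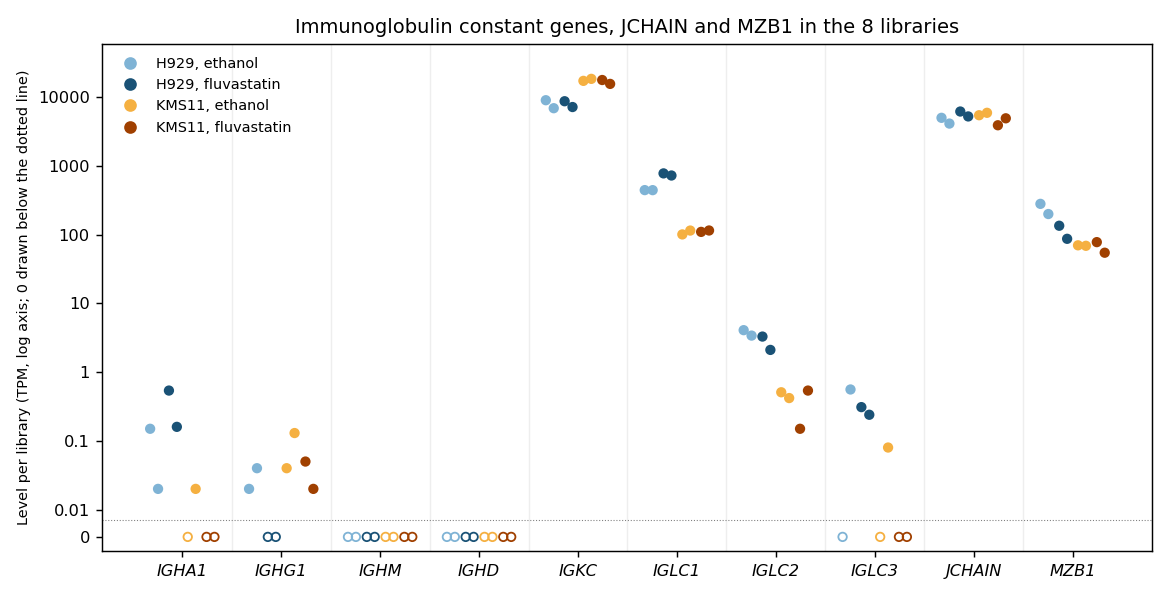
Level of each of the 10 genes in the 8 libraries (TPM on a log axis, 0 drawn as open circles below the dotted line), with replicate 1 to the left of replicate 2 in each group. *IGKC* and *JCHAIN* lie at 3935 TPM or more in every library, whereas the 4 heavy chain genes stay below 1 TPM.

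Of the 10 other constant genes listed, *IGHE* and *IGHA2* passed the filter, and the remaining 8 had at most 4 counts in any library. Among these 8, *IGHGP*, *IGLC4*, *IGLC5* and *IGLC6* were outside the biotypes that were put to the filter. *IGHE* (chr14:105597691-105601728, minus strand), for the IgE heavy chain, had 24 and 14 counts in H929 in ethanol and 158 and 118 in fluvastatin. The groups did not overlap, and the difference was 3.06 ± 0.36 with an edgeR adjusted p of 0.00015. In KMS11 the counts were 1 and 4 in ethanol and 7 and 10 in fluvastatin, a difference of 1.88 ± 0.68 that was not called (edgeR adjusted p = 0.16). The responses of the lines differed by -1.18 ± 0.92 (KMS11 minus H929, edgeR adjusted p = 0.37).

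*IGHA2*, for the IgA2 heavy chain, was named after its values were seen. It had 3 and 1 counts in H929 in ethanol, 16 and 12 in fluvastatin, and 0 in all 4 KMS11 libraries. The difference in H929 was 2.94 ± 0.72 (edgeR adjusted p = 0.013), and the call was lost without the second ethanol (0.088) or the first fluvastatin (0.085) library and with DESeq2 (0.13). *IGHA2* passed the filter only through the H929 fluvastatin libraries in which it was highest, so its test in H929 is given as a description only. Even in those libraries the level of *IGHE* was 4.70 and 6.86 CPM.

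Kappa light chain transcripts led in both lines. *IGKC* (chr2:88857161-88857683, minus strand, a single exon) stood at 9111 and 6970 TPM in H929 in ethanol and at 8803 and 7248 TPM in fluvastatin. In KMS11 it stood at 17426 and 18640 TPM in ethanol and at 17933 and 15745 TPM in fluvastatin. It was the 13th gene by mean TPM in both H929 groups, and the 5th and 6th in the KMS11 groups. All 4 KMS11 libraries lay above all 4 H929 libraries, whereas the ethanol and fluvastatin libraries overlapped within each line.

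The order of the group means was KMS11 in ethanol at 18033 ± 858 TPM (SD, n = 2), KMS11 in fluvastatin at 16839 ± 1547, H929 in ethanol at 8041 ± 1513 and H929 in fluvastatin at 8025 ± 1100. Neighbours within a line did not differ beyond their spread. Fluvastatin moved *IGKC* by -0.014 ± 0.16 in H929 and by 0.057 ± 0.16 in KMS11, with edgeR adjusted p of 0.96 and 0.87. The difference between the responses was 0.072 ± 0.23 (edgeR adjusted p = 0.86). In ethanol, *IGKC* was higher in KMS11 by 0.63 ± 0.16 on the CPM scale (edgeR adjusted p = 0.0057) and by 1.18 on the log2(TPM + 1) scale. All 20 alternative settings kept this call. The constant gene took 0.443 to 0.573% of all counts in the H929 libraries and 0.770 to 0.970% in the KMS11 libraries.

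The leading kappa variable gene of both lines was *IGKV3-15* (chr2:89085177-89085787, minus strand). It held 99.2 to 99.3% of all counts on kappa variable and joining genes in H929 and 93.0 to 97.1% in KMS11. Its level was 4035 and 3107 CPM in H929 in ethanol and 3844 and 3203 CPM in fluvastatin, with a difference of -0.019 ± 0.18. In KMS11 it was 3999 and 4797 CPM in ethanol and 5018 and 3588 CPM in fluvastatin, with a difference of -0.031 ± 0.18. Neither was called (edgeR adjusted p = 0.95 in both lines), and the groups overlapped in each line, as for *IGKC*. The TPM of *IGKC* was 1.25 to 1.28 times that of *IGKV3-15* in the H929 libraries and 1.54 to 1.77 times in the KMS11 libraries. A further kappa variable gene, *IGKV1-37*, was named after its values were seen. It had 2568 and 3416 counts in KMS11 in ethanol, 1896 and 2526 in fluvastatin, and 0 in every H929 library. Its difference in KMS11 was -0.26 ± 0.16 and was not called (edgeR adjusted p = 0.38).

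Reads of kappa variable genes are hard to place, because the locus holds a proximal and a distal copy of many genes. The opening 120 bases of the variable exon are shown for 2 such pairs, from GRCh38 and in the direction of transcription, with the 6 positions at which the 4 genes differ in capitals. They lie at chr2:89085353-89085472 and chr2:89027347-89027466 on the minus strand and at chr2:90115105-90115224 and chr2:90173117-90173236 on the plus strand.
IGKV3-15: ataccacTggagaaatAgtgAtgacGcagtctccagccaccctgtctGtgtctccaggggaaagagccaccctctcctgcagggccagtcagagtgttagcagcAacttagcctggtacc
IGKV3D-15: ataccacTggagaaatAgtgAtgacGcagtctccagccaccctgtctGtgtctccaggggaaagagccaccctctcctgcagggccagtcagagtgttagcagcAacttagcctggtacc
IGKV3-11: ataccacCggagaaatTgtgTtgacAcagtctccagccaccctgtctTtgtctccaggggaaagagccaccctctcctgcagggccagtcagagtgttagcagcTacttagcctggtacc
IGKV3D-11: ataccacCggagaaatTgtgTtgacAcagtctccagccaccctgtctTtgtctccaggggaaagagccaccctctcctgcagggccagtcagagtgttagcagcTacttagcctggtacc

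Within this stretch the copies of a pair are identical, and over 296 bases of the exon each pair differed at 3. Between *IGKV3-15* and *IGKV3-11* the exon differed at 18 bases. The split of reads among these genes is therefore uncertain. *IGKV3D-15*, named after its values were seen, was at 1.95 to 2.37 CPM in H929 and at 93.9, 250, 79.3 and 83.1 CPM in the KMS11 libraries, with the 2 ethanol libraries first. Its replicates in KMS11 in ethanol thus differed by more than the groups did.

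*IGKV3-11* had 442 and 505 counts in KMS11 in ethanol and 12 and 8 in fluvastatin, a difference of -5.35 ± 0.32 (edgeR adjusted p = 2.4e-05). The gene passed the filter only through the KMS11 ethanol libraries, in which it was highest, so this test is a description only. In H929 it had at most 2.2 counts in a library. Its near-identical copy *IGKV3D-11* had 9.02 and 10.7 counts in KMS11 in ethanol and 6 and 3 in fluvastatin. The kappa variable and joining genes together took 0.388 and 0.471% of all counts in KMS11 in ethanol and 0.471 and 0.346% in fluvastatin, which overlap. Whether reads of *IGKV3-11* were assigned to its near-identical copy or to more distant kappa genes was not tested.

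Of the 200 variable, diversity and joining genes, 10 were tested. In H929, 1 of the 10 was lower with fluvastatin and none higher, and in KMS11 1 was lower, *IGKV3-11*, and none higher. Among all tested genes, 41.9% were called in H929 and 3.11% in KMS11. The call of *IGKV3-11* cannot be set against the KMS11 share, because the gene passed the filter only through the KMS11 ethanol libraries. The lower gene in H929 was *IGLV3-9*, a lambda variable gene, with 30 and 17 counts in ethanol and 9 and 5 in fluvastatin (-1.52 ± 0.51, edgeR adjusted p = 0.036), and the call was lost without any 1 of the 4 H929 libraries, at adjusted p of 0.053 to 0.23, and with DESeq2 (0.17). The highest lambda variable gene was *IGLV5-52* in both lines, with 11 to 25 counts in a library. Heavy chain variable genes were lower still: the leading genes, *IGHV6-1* in H929 and *IGHV4-31* in KMS11, had mean levels of 0.0925 and 0.278 TPM.

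*IGLC1*, a lambda constant gene, rose in H929. In H929 it stood at 447 and 447 TPM in ethanol and at 784 and 730 TPM in fluvastatin, or 267 and 270 CPM against 468 and 430 CPM. In KMS11 it stood at 101 and 115 TPM in ethanol and at 110 and 116 TPM in fluvastatin, or 40.5 and 48.8 CPM against 53.5 and 49.8 CPM. The H929 groups did not overlap, and both lay above every KMS11 library. The rise in H929 was 0.74 ± 0.11 (edgeR adjusted p = 0.00045). The difference in KMS11 was 0.21 ± 0.11 and was not called (edgeR adjusted p = 0.29).

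The responses of *IGLC1* differed between the lines by -0.53 ± 0.15 (KMS11 minus H929, edgeR adjusted p = 0.031). This call was lost without the first (adjusted p = 0.087) or second (0.07) H929 ethanol library, the first (0.087) or second (0.053) H929 fluvastatin library, and the second KMS11 ethanol library (-0.39, 0.16). In ethanol the gene was lower in KMS11 (-2.59 ± 0.11, edgeR adjusted p = 3.8e-08). Its level was far below that of *IGKC* in each library. In H929 the TPM of *IGKC* was 20.4 and 15.6 times that of *IGLC1* in ethanol and 11.2 and 9.93 times in fluvastatin, and in KMS11 it was 136 to 172 times.

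Because *IGLC1* shares its whole length with *IGLL5*, both were set side by side. *IGLL5*, named after its values were seen, stood at 309 and 246 CPM in H929 in ethanol and at 342 and 269 CPM in fluvastatin, which overlap. In KMS11 it stood at 25.6 and 31.9 CPM in ethanol and at 51.8 and 30.2 CPM in fluvastatin. Its differences of 0.14 ± 0.23 in H929 and 0.51 ± 0.24 in KMS11 were not called (edgeR adjusted p = 0.66 and 0.24). Like *IGLC1*, it was lower in KMS11 in ethanol (-3.27 ± 0.25, edgeR adjusted p = 1.7e-06).

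The share of the summed counts assigned to *IGLC1* was 46.3 and 52.4% in H929 in ethanol and 57.7 and 61.5% in fluvastatin. Summed into 1 feature, the genes stood at 576 and 516 CPM in H929 in ethanol and at 810 and 699 CPM in fluvastatin, which do not overlap. The sum rose by 0.47 in H929 (edgeR adjusted p = 0.028), less than *IGLC1* alone. For the sum, the responses of the lines differed by -0.13, and this was no longer called (edgeR adjusted p = 0.69).

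**Figure D2:**
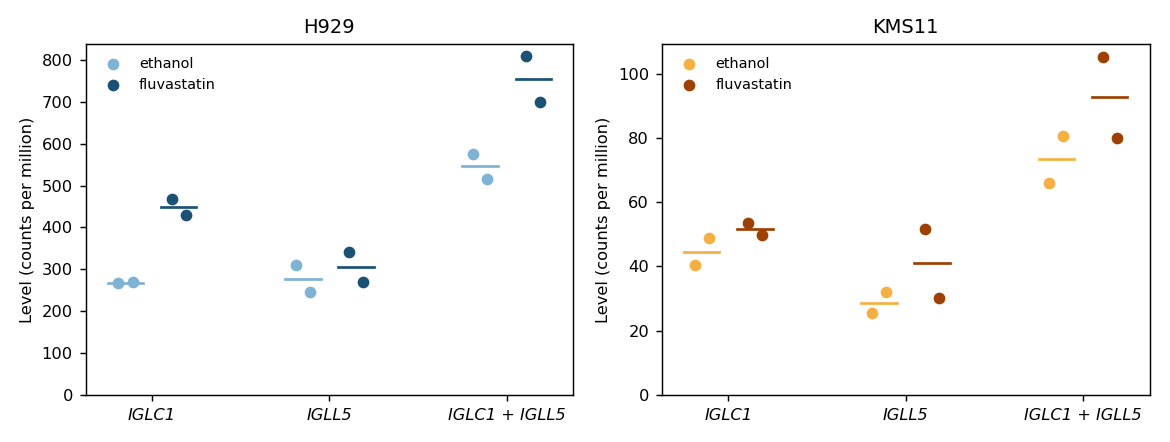
Level in CPM of *IGLC1*, of *IGLL5* and of their sum in each library (points) with the mean of 2 replicates (lines), for H929 and KMS11 on separate axes that start at 0. In H929 both fluvastatin points of *IGLC1* and of the sum lie above both ethanol points, whereas the points of *IGLL5* overlap.

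The other lambda constant genes were low. *IGLC2* had 73.0 and 52.4 counts in H929 in ethanol and 45.7 and 31.4 in fluvastatin, and 2 to 9.01 counts in the KMS11 libraries. It was lower in KMS11 in ethanol (-3.49 ± 0.45, edgeR adjusted p = 6.4e-05), and its responses of -0.49 ± 0.36 in H929 and -0.28 ± 0.62 in KMS11 were not called (edgeR adjusted p = 0.31 and 0.83). *IGLC2* passed the filter only through the H929 libraries, in which it was higher, so its test between the lines is a description only. *IGLC3* had at most 8.61 counts in a library and was 0 in 4 of the 8 libraries, and it did not pass the filter.

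*JCHAIN* (chr4:70655541-70681817, minus strand), the polymer linker, was the other abundant member, and its responses differed between the lines. It stood at 9679 and 8673 CPM in H929 in ethanol and at 12335 and 11146 CPM in fluvastatin. In KMS11 it stood at 8048 and 8419 CPM in ethanol and at 6273 and 7225 CPM in fluvastatin. Within each line the groups did not overlap, with the fluvastatin libraries above in H929 and below in KMS11.

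The rise in H929 was 0.36 ± 0.11 (edgeR adjusted p = 0.023), and the difference in KMS11 was -0.29 ± 0.11, which was not called (edgeR adjusted p = 0.17). The KMS11 difference was called without the second KMS11 fluvastatin library (-0.44, edgeR adjusted p = 0.019). The test of the difference between the responses gave -0.64 ± 0.15 (edgeR adjusted p = 0.015). Both calls were lost without the second H929 ethanol library, with adjusted p of 0.16 for the rise and 0.056 for the difference, and without either KMS11 ethanol library, with adjusted p of 0.062 and 0.063 for the rise and of 0.054 and 0.067 for the difference. The rise was also lost without the first H929 fluvastatin library (edgeR adjusted p = 0.13).

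In length-corrected units *JCHAIN* stood at 5049 and 4164 TPM in H929 in ethanol, 6237 and 5289 TPM in fluvastatin, 5508 and 5973 TPM in KMS11 in ethanol and 3935 and 4967 TPM in fluvastatin. Its rank by mean TPM was 17 to 20 in the 4 groups. The levels of the lines in ethanol were not called different (-0.16 ± 0.11, edgeR adjusted p = 0.21), and the sign depended on the scale: it was 0.32 on the log2(TPM + 1) scale and -0.46 with the trend of each library with GC content removed, of which the latter was called (edgeR adjusted p = 0.0015). Relative to *IGKC*, the TPM of *JCHAIN* was 0.554 and 0.597 in H929 in ethanol and 0.708 and 0.730 in fluvastatin. In KMS11 the ratio was 0.316 and 0.320 in ethanol and 0.219 and 0.315 in fluvastatin.

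*MZB1* (chr5:139387467-139390081, minus strand), the ER assembly factor, was the member that fell. It stood at 430 and 311 CPM in H929 in ethanol and at 225 and 141 CPM in fluvastatin. In KMS11 it stood at 71.9 and 74.9 CPM in ethanol and at 93.4 and 60.0 CPM in fluvastatin. The H929 groups did not overlap, and the KMS11 fluvastatin libraries lay on either side of the ethanol ones. By TPM its order was 241 ± 57.7 in H929 in ethanol, 111 ± 34.0 in H929 in fluvastatin, 69.7 ± 0.799 in KMS11 in ethanol and 66.6 ± 16.5 in KMS11 in fluvastatin (SD, n = 2), of which the last 2 did not differ beyond their spread.

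The fall in H929 was -1.02 ± 0.25, or 0.494-fold (edgeR adjusted p = 0.0087), and the difference in KMS11 was 0.061 ± 0.25 (edgeR adjusted p = 0.92). The responses differed by 1.08 ± 0.35, which just missed the threshold (edgeR adjusted p = 0.051) and passed it in 7 of 20 alternative settings. In ethanol *MZB1* was lower in KMS11 (-2.34 ± 0.26, edgeR adjusted p = 2.2e-05). The call within H929 was lost without the first ethanol library (-0.77, adjusted p = 0.056) and without the second fluvastatin library (-0.72, adjusted p = 0.054).

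**Figure D3:**
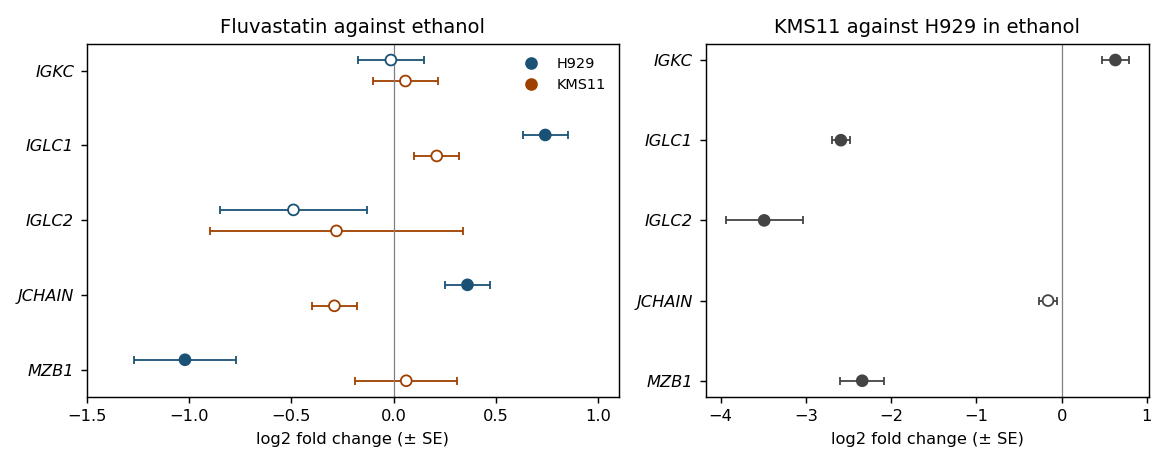
Log2 fold change ± SE of the 5 tested genes for fluvastatin against ethanol in H929 and in KMS11 (left) and for KMS11 against H929 in ethanol (right), with called genes as filled points. *IGLC1* and *JCHAIN* are called higher and *MZB1* lower in H929, no member is called in KMS11, and between the lines *JCHAIN* alone is not called. The call of *IGLC2* between the lines is a description only, because the gene passed the filter only through H929.

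Counted over the 5 tested members, 2 were higher and 1 lower with fluvastatin in H929, where 41.9% of the 13144 tested genes were called, 22.7% higher and 19.2% lower. In KMS11 no member was called, beside 3.11% of all tested genes, 2.58% higher and 0.533% lower. With unadjusted p the 409 calls among all tested genes in KMS11 become 2875 genes under 0.05, of which *JCHAIN*, at 0.024, is the 1 member. DESeq2 also called 0 members there. For the difference of the responses 2 of 5 members were called, beside 23.2%, and for the lines in ethanol 4 of 5 were called, beside 72.0%. Among the latter was *IGLC2*, which passed the filter only through the H929 libraries, so its call cannot be set against that share. Across both lines, with a term for the line, *IGLC1* was the single member called (0.48 ± 0.12, edgeR adjusted p = 0.044), beside 10.5%. With 5 members, a single gene moves such a share by more than the gap to the background in H929. The comparisons within a line share libraries with those between lines. The call across both lines was lost in 12 of 21 alternative settings.

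The genes around the members were described from lists written from general knowledge. Of the 18 factors in transcription and RNA processing of immunoglobulin genes, 16 were tested, and in H929 9 were higher and 5 lower with fluvastatin, beside 22.7% and 19.2% of all tested genes. The median log2 fold change was 0.30, beside 0.022 for all tested genes. The 3 with the largest changes were *POU2F2*, which encodes the octamer-binding factor OCT2, and *BACH2* and *EBF1*, transcription factors of earlier B cells. *BACH2* had 711 and 499 counts in ethanol and 1754 and 1930 in fluvastatin (1.81 ± 0.16, edgeR adjusted p = 3.1e-05). In KMS11 it stood at 3.58 and 3.11 CPM in ethanol and at 6.10 and 4.41 CPM in fluvastatin. That difference, 0.64 ± 0.19, was not called (edgeR adjusted p = 0.10), but DESeq2 called it (adjusted p = 0.041).

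*POU2F2* had 11 and 3 counts in H929 in ethanol and 20 and 32 in fluvastatin (2.07 ± 0.44, edgeR adjusted p = 0.0041), against 343 to 400 counts in KMS11. *EBF1* had 6 and 7 counts in ethanol and 20 and 17 in fluvastatin (1.68 ± 0.47, edgeR adjusted p = 0.017). Both rose from low counts. The call of *EBF1* was lost without either H929 ethanol library (adjusted p = 0.12 and 0.057) or the first H929 fluvastatin library (0.10), and with DESeq2 (0.11). Among the genes that fell in H929 was *POU2AF1*, the coactivator of the octamer factors (-0.59 ± 0.10, edgeR adjusted p = 0.00092). *ELL2*, an elongation factor that favours the secreted heavy chain, rose (0.53 ± 0.10, edgeR adjusted p = 0.0022).

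In KMS11, 1 of the 16 was called, beside 3.11% of all tested genes. It was *XBP1*, the transcription factor of the secretory programme, which was lower. It stood at 966 and 1022 CPM in ethanol and at 732 and 774 CPM in fluvastatin (-0.40 ± 0.085, edgeR adjusted p = 0.037). In H929 it stood at 3324 and 3344 CPM in ethanol and at 2657 and 2597 CPM in fluvastatin (-0.34 ± 0.084, edgeR adjusted p = 0.0090). In neither line did the groups overlap, and the responses differed by -0.057 ± 0.12 (edgeR adjusted p = 0.77). The KMS11 call was lost without either KMS11 ethanol library (adjusted p = 0.20 and 0.30), without the first KMS11 fluvastatin library (0.10) and without any 1 of the 4 H929 libraries (0.051 to 0.06). The H929 call was lost without the second ethanol (0.051) or second fluvastatin (0.06) library of that line. The median of the list in KMS11 was -0.14, beside 0.004 for all tested genes.

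All 20 genes for folding and assembly of immunoglobulin chains in the ER were tested. In H929, 13 were lower and 4 higher with fluvastatin, beside 19.2% and 22.7% of all tested genes. The median was -0.34, beside 0.022 for all tested genes. The largest changes were those of *SDF2L1*, a partner of ER chaperones, *PDIA4*, a protein disulphide isomerase, and *ERO1B*, an oxidase that recharges such isomerases. *SDF2L1* stood at 38.7 and 32.1 CPM in ethanol and at 19.3 and 13.1 CPM in fluvastatin (-1.13 ± 0.20, edgeR adjusted p = 0.0015). *PDIA4* stood at 540 and 482 CPM in ethanol and at 293 and 246 CPM in fluvastatin (-0.92 ± 0.11, edgeR adjusted p = 0.00016).

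*ERO1B* rose, from 8.20 and 6.88 CPM to 12.8 and 12.6 CPM (0.75 ± 0.16, edgeR adjusted p = 0.0037). *HSPA5*, which encodes the chaperone BiP that holds unassembled heavy chains, fell by 0.31 on the log2 scale (edgeR adjusted p = 0.016), and *LMAN1* and *PPIB* fell by 0.58 and 0.60. In KMS11 none of the 20 was called by edgeR, beside 3.11% of all tested genes, or by DESeq2. Of the 20, 5 had an unadjusted p under 0.05 there, and the median was -0.078, beside 0.004 for all tested genes. For the difference of the responses (KMS11 minus H929), 5 were called higher and 1 lower, beside 23.2% of all tested genes called in either direction. *MZB1* fell in the line in which most of this list fell, and *JCHAIN* and *IGLC1* rose there.

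**Figure D4:**
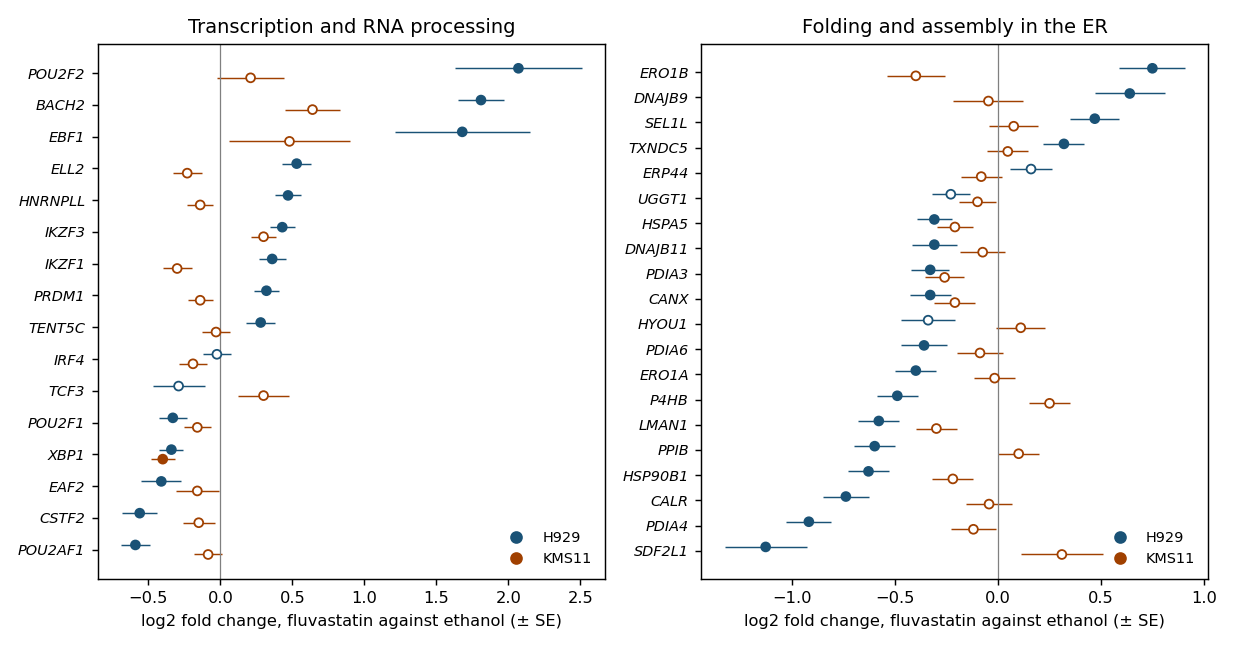
Log2 fold change ± SE for fluvastatin against ethanol in H929 and KMS11, for the tested factors of immunoglobulin transcription and RNA processing (left) and of folding and assembly in the ER (right), with called genes as filled points. In the folding list 13 of 20 genes are called lower in H929, beside 19.2% of all tested genes, and none in KMS11, beside 0.533%. In the transcription list *XBP1* is the one gene called in both lines.

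Receptor partners and surrogate light chains were mostly unexpressed, with 4 of 10 genes tested. With fluvastatin, 1 of the 4 was called higher and 1 lower in H929, beside 22.7% and 19.2% of all tested genes. In H929 *FCRLA* rose from 9 and 5 counts to 24 and 59 (2.73 ± 0.55, edgeR adjusted p = 0.0031), and *CR2*, a complement receptor of B cells, fell from 8 and 5 counts to 2 and 1 (-1.85 ± 0.66, edgeR adjusted p = 0.047). In KMS11, where *CR2* had 811 to 1812 counts, none was called by edgeR, beside 3.11% of all tested genes. There, 1 of the 4 had an unadjusted p under 0.05 and DESeq2 called 1. The call of *CR2* in H929 was lost without any 1 of the 4 H929 libraries (adjusted p = 0.069 to 0.26) and with DESeq2 (0.096).

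Of the 7 receptors that bind immunoglobulin, 4 were tested and 3 were higher with fluvastatin in H929, beside 22.7% of all tested genes. DESeq2 called 1 of the 4 in H929, *TRIM21*. The 3 were *FCER2*, a receptor for IgE (3 and 1 counts against 11 and 10, edgeR adjusted p = 0.027), *FCRL5* (48 and 30 against 61 and 65, edgeR adjusted p = 0.030) and *TRIM21*, which binds antibody in the cytosol (580 and 427 against 640 and 650, edgeR adjusted p = 0.0079). *FCER2* had 0 counts in all KMS11 libraries and passed the filter only through the H929 fluvastatin libraries in which it was highest. Its call is therefore a description only and cannot be set against the share of all tested genes. Leaving out single libraries ended the call of *FCER2* (3 libraries of H929, up to 0.16), of *FCRL5* (all 4 of H929 and both KMS11 ethanol libraries, up to 0.19) and of *TRIM21* (the second H929 ethanol and first fluvastatin library, 0.072 and 0.052). In KMS11 none of the 4 was called by edgeR, beside 3.11% of all tested genes, or by DESeq2, and 0 had an unadjusted p under 0.05.

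Across the 8 libraries, the log2 CPM of *JCHAIN* was most like that of *MOCOS*, *STRBP* and *SULT1A1*, with Pearson's r of 0.979, 0.978 and 0.974. For *MZB1* the closest genes were *NFRKB*, *USF1* and *RPS3* (r = 0.998, 0.996 and 0.995), and for *IGKC* they were *TM9SF4*, *ERGIC3* and *RAB5C* (r = 0.989, 0.984 and 0.984). These values were the highest among all 13144 tested genes that are not members, and the libraries share lines and treatments, so that they only describe the pattern.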

How the data were processed

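RNA was measured in 8 libraries of H929 and KMS11 cells. Per the labels and methods, the authors made stranded total RNA libraries after ribosomal RNA depletion, aligned reads to hg38 with STAR 2.5.2b and estimated expected counts and TPM per gene with RSEM 1.3.0. The deposited expected counts are not normalized and the deposited TPM values are corrected for effective length. The deposited FPKM values, the authors' second length-corrected scale, were not used. The strand setting of the counting is not given in the sources used here, so overlapping antisense genes may share reads.

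Gene names, biotypes and positions came from GENCODE release 44 (GRCh38), which held 57392 of 58219 identifiers; the authors used an earlier release. Rounded counts of protein-coding genes and of 214 immunoglobulin genes were filtered with filterByExpr (minimum count 10, minimum total 15), scaled with TMM and tested with edgeR 4.0.16 (R 4.3.3) by its quasi-likelihood F test, with p-values adjusted by the Benjamini-Hochberg method over 13144 genes. The 4 group means were fitted together, and the comparison across both lines had terms for line and treatment. SE is the log2 fold change divided by the square root of F. On simulated data for H929, 89% of genes changed by a log2 fold change of 1 and 98% of those changed by 2 were recovered, with 7.43% of calls false. The changed genes, 100 of each size among 13144, were drawn from better expressed genes. The recovery therefore does not cover genes at low counts, and far fewer genes were changed than the 41.9% called in H929.

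Alternatives used DESeq2 1.42.0, limma 3.58.1, other scalings and filters, all annotated genes, summed paralogs, a replicate block, and leaving out each library. Summing *IGLC1* with *IGLL5* and a per-library GC offset were chosen after seeing the data. Named genes were the 10 members, other constant genes with a mean of at least 1 TPM in a line, the leading variable gene of each kind, the 3 called genes with the largest change per list and line, and the 3 genes most like *JCHAIN*, *MZB1* and *IGKC*. Others were named after their values were seen, among them *POU2AF1*, *ELL2*, *HSPA5*, *LMAN1* and *PPIB*. The members and lists were chosen with earlier results of these data known. With 2 replicates per group, an exact permutation test could not reach the threshold, so levels are descriptions. Results that concern a withheld item are left out.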

Additional observations from a re-analysis of the deposited data

Results flagged for a closer look

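In each case below, edgeR's quasi-likelihood test of the difference between the fluvastatin responses of the lines (KMS11 minus H929, log2) passed an adjusted p of 0.05. No explanation was tested.

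Among the members, the difference was -0.53 for *IGLC1*, which rose in H929 and was not called in KMS11. The call was lost without any 1 of 5 libraries (the 4 of H929 and the second KMS11 ethanol library, adjusted p = 0.053 to 0.16) and with *IGLC1* and *IGLL5* summed (-0.13, 0.69). For *JCHAIN* the difference was -0.64, with a rise in H929 and lower values in KMS11. This call was lost without any 1 of 3 libraries (the second H929 ethanol and both KMS11 ethanol libraries, 0.054 to 0.067) and with limma on log2(TPM + 1) (0.097).

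Among the other genes named, *IGKV3-11* gave -5.53, which rests on low counts in H929. This gene passed the filter only through the KMS11 ethanol libraries, so its call is a description only. The factors *POU2F2* and *BACH2* gave -1.86 and -1.17. In the ER list, *SDF2L1* and *PDIA4* gave 1.45 and 0.80, and *ERO1B* gave -1.15. *FCRLA* gave -2.81 from at most 59 counts in a library. Leaving out single libraries ended the call of *IGKV3-11* (without the first H929 fluvastatin library, adjusted p = 0.12), of *POU2F2* (without the second H929 ethanol, second H929 fluvastatin or either KMS11 ethanol library, 0.058 to 0.11), of *BACH2* (without the first KMS11 ethanol library, 0.05) and of *FCRLA* (without 6 of 8 libraries, 0.063 to 0.15).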

How the results depend on the processing

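Of 499 values of the 5 tested members under the alternatives, 424 kept their side of the threshold and direction, 30 lost a call, 11 gained one and 34 changed sign without a call in either fit. 0 reversed a call. The rise of *IGLC1* in H929 was called in all 20 alternatives (0.47 to 0.94), that of *JCHAIN* in 14 of 20 (0.27 to 0.43) and the fall of *MZB1* in 18 of 20 (-1.40 to -0.72). The cause of these changes was not tested.

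Members called within KMS11 went from 0 to 1 (*JCHAIN*, -0.29, adjusted p = 0.021) with the replicate block, and those for the difference of responses from 2 to 1 with limma on log2(TPM + 1) and with *IGLC1* and *IGLL5* summed. Across both lines, the 1 call became 0 with median-of-ratios scaling, all annotated genes, limma, the replicate block, no line term, or *IGLL5* summed.

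Within KMS11, the 409 genes called became 927 with DESeq2, 1112 with no filter, 227 with limma, 1623 with the replicate block and 1512 with the GC trend removed. Across both lines, 1377 became 2558 with DESeq2, 158 with the replicate block, 4 with no line term and 2982 with the GC trend removed.

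Leaving out 1 library at a time, members called ranged from 2 to 3 in H929, 0 to 1 in KMS11, 0 to 3 for the difference, 4 to 5 between lines in ethanol and 0 to 1 across both. Genes called ranged from 66 to 2123 in KMS11, where the count was 66 and 73 without either ethanol library and 2123 without the second fluvastatin library. They ranged from 1303 to 4250 for the difference and from 193 to 1699 across both lines.

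Without immunoglobulin genes in the total, mean TPM moved by more than the replicate SD for *IGLC1* in H929 in ethanol (454) and *MZB1* in KMS11 in ethanol (71.9).

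The labels do not say what a replicate number shares, so no pairing was assumed. The deviations of same-numbered libraries correlated at 0.536 between the H929 groups, at 0.557 and 0.57 between each of these and KMS11 in fluvastatin, and at -0.0333 to 0.000641 between KMS11 in ethanol and the other 3 groups. The abundant members had high counts and 2 replicates a group, whereas the heavy chain members and *IGLC3* had few counts. Whether spread or depth limited what could be seen for any of them was not tested.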
